A study of Mus musculus with 4 samples.

Results

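The genes described here are 10 members of the insulin and insulin-like growth factor (IGF) system, measured in the POMC cells of the mouse pituitary. Melanotropes process the POMC precursor mainly to α-MSH and corticotropes process it to ACTH. They were chosen by symbol: the receptors Igf1r and Insr, the receptor substrates Irs1 and Irs2, and the secreted binding proteins Igfbp2, Igfbp3, Igfbp4, Igfbp5, Igfbp6 and Igfbp7. These 10 genes had 11 transcripts in a deposited table of 24063 genes and 33072 RefSeq transcripts on mouse build mm10. RNA-seq had been run on GFP-positive cells sorted from C57B6 mice that carry EGFP under Pomc control, with 2 melanotrope libraries from the intermediate lobe and 2 corticotrope libraries from the anterior lobe. No treatment is given in the labels, age and sex were not used here, and separate animals or sorts are not recorded for the replicates, so p-values measure only the spread between these libraries, which may be technical. Values are FPKM, which are reads scaled to exon length and library size, rescaled between libraries unless called deposited, and means are ± SD with n = 2 per cell type.

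Insulin and the IGFs act through related tyrosine kinase receptors that phosphorylate IRS docking proteins, which recruit phosphoinositide 3-kinase (PI3K) and so reach Akt and mTOR. The binding proteins hold IGFs in the fluid around cells, limiting or prolonging their access to the IGF1 receptor, and proteases such as the pappalysins cut some of them to release the hormone. In the anterior pituitary, IGF1 is best known for its feedback on growth hormone cells.

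The libraries were compared with markers of their labels. These lists were chosen with earlier results of these data known, so this was not an independent check. Of 5 markers of POMC cells, Pomc and Tbx19 were not called and 3 fell in melanotropes. Pomc was higher in both melanotrope libraries, with a log2 fold change of 1.36 (limma adjusted p = 0.213). Its SE was 0.76, against a median SE of 0.10 over all genes tested. Tbx19, the transcription factor of the POMC lineage, had means of 177 FPKM in melanotropes and 204 FPKM in corticotropes, and Pomc took 49.7% and 50.9% of summed deposited FPKM in melanotropes and 27.8% and 27.2% in corticotropes. Neurod1, a factor known from corticotropes, had means of 0.0960 FPKM in melanotropes and 7.88 FPKM in corticotropes, where alone it reached 1 FPKM, and Pitx1 and the processing enzyme Pcsk1 had log2 fold changes of -0.65 and -0.61. All 5 melanotrope markers listed (Pax7, Pcsk2, Drd2, Oacyl and Gulo) rose in melanotropes, and the corticotrope markers Crhr1 and Avpr1b fell. Avpr1b reached 1 FPKM in corticotropes alone, so the expression filter favoured its call and its p-value is not support for a difference. Means of the 5 melanotrope markers were 6.42 (Drd2) to 7.63 (Oacyl) times as high in melanotropes, so all 5 were still present in the corticotrope libraries. Whether this was RNA of melanotropes in those libraries was not tested. RNA of other anterior-lobe hormone cells was also present in the corticotrope libraries. The summed FPKM of 12 of their markers was 14.4 and 63.6 in melanotropes and 5809 and 5659.6 in corticotropes, and all 12 fell in melanotropes. Of those 12, 7 passed the expression filter through the corticotropes alone. The part of these cells in the results below was not tested. In bulk libraries, fewer cells of a type and less RNA per cell cannot be told apart. The reads implied by the spacing of low FPKM values, over the longest transcript of each gene, came to 145997469 and 149622444 in melanotropes and 97596298 and 187148350 in corticotropes. A unit of FPKM times kilobase stood for 219 and 234 reads in melanotropes and 115 and 230 in corticotropes, so corticotrope replicate 1 was the least precise.

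The comparison asked how the system differs between melanotropes and corticotropes. Melanotropes had 9.99 times as much Igfbp4 and 2.11 times as much Igf1r, whereas corticotropes had 5.95 times as much Igfbp3 and 1.72 times as much Igfbp5. Igfbp2 was higher and Irs2 and Igfbp7 were lower in melanotropes by smaller margins. Insr and Irs1 did not pass the test, and Igfbp6 lay under 1 FPKM in every library. Of the 10 genes, 9 reached 1 FPKM in at least 2 libraries and were tested. With limma and Benjamini-Hochberg adjustment over all 13043 genes tested (threshold 0.05), 3 rose and 4 fell in melanotropes. Among all genes tested 18.7% rose and 17.5% fell, or 36.2% either way. The 2 libraries of melanotropes lay wholly above or below those of corticotropes for 7 of the 9 genes, near the 70.4% of all genes tested. The median log2 fold change was -0.14 over the 9 genes and 0.01 over all genes tested. Without melanotrope replicate 1, or without corticotrope replicate 2, the number that fell was 2. On the deposited scale, where the median gene stood at -0.42, the counts were 3 higher and 6 lower, against 939 (7.14%) and 8787 (66.8%) of 13153 genes.

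**Figure D1:**
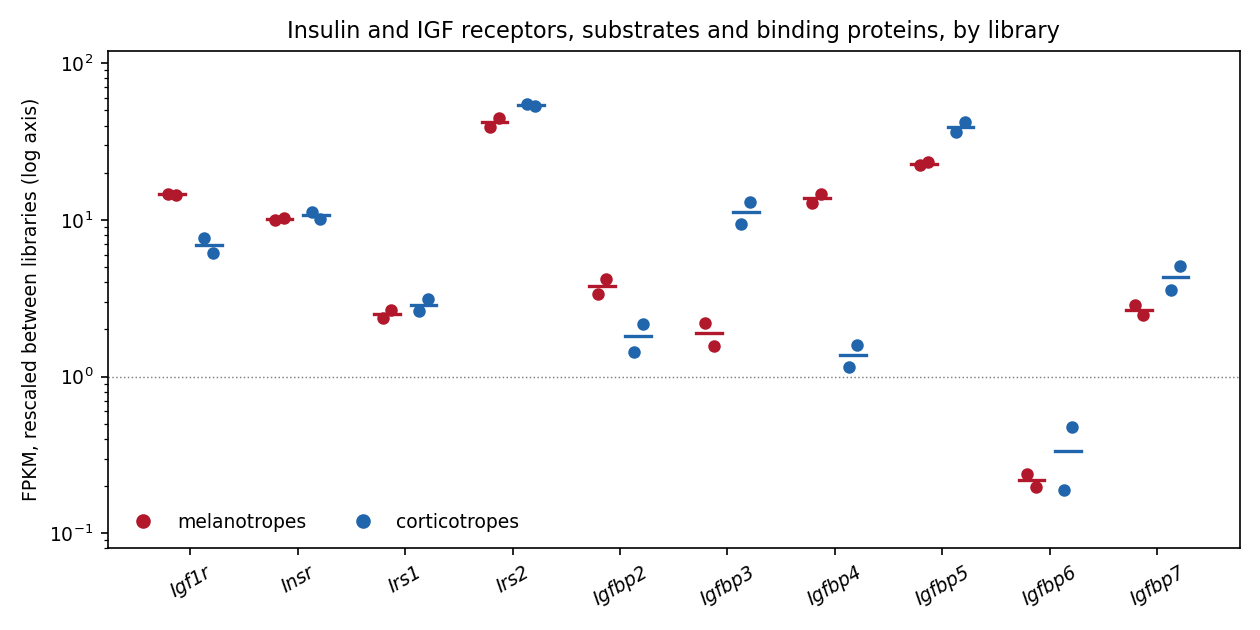
FPKM of the 10 genes in each library on a log axis, with melanotropes (red) left of corticotropes (blue), points for libraries and short lines for means of n = 2. The dotted line marks 1 FPKM. The libraries of the cell types are far apart for Igfbp3 and Igfbp4, overlap for Insr and Irs1, and lie below the line for Igfbp6.

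Of the receptors, Igf1r, which binds IGF1 and IGF2, was the gene that changed. Igf1r (chromosome 7, 67952257 to 68233667, plus strand) had 14.6 and 14.5 FPKM in melanotropes and 7.65 and 6.13 FPKM in corticotropes. The melanotrope libraries nearly coincided, and neither corticotrope library came near them. Its log2 fold change was 0.98 (SE 0.11, limma adjusted p = 0.00123), and 0.54 on the deposited scale, where it was also called higher (adjusted p = 0.0144, range over all 14 alternatives 3.91e-05 to 0.0442).

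Insr, the insulin receptor (chromosome 8, 3150922 to 3279617, minus strand), had 9.95 and 10.3 FPKM in melanotropes and 11.3 and 10.1 FPKM in corticotropes. These ranges overlapped, and the log2 difference of -0.07 had a 95% interval of -0.28 to 0.15 (limma adjusted p = 0.587). A fall of Insr was called on the deposited scale (log2 difference -0.52, limma adjusted p = 0.00667, range over 14 alternatives 0.00667 to 0.968). The table held a single Insr transcript, so the exon-skipped and full-length forms of the receptor were not analysed here.

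The order of these receptors was opposite in the cell types. The ratio of Igf1r to Insr FPKM was 1.47 and 1.40 in melanotropes and 0.676 and 0.607 in corticotropes. Every melanotrope library thus held more Igf1r than Insr per length, and every corticotrope library less. A ratio within a library does not depend on the scaling between libraries. It was not given a test, since an exact two-sided permutation of 2 against 2 libraries cannot go below p = 0.333. The summed FPKM of the pair was 24.5 and 24.8 in melanotropes and 18.9 and 16.2 in corticotropes. Among other receptors Igf2r, which carries IGF2 to lysosomes, fell in melanotropes, with 10.7 and 12.6 FPKM against 15.5 and 16.5 FPKM in corticotropes (log2 fold change -0.43, limma adjusted p = 0.0197). The Igf2r call was lost without the expression filter (adjusted p = 0.111). Igf2r overlaps the antisense transcript Airn, and whether the counting used strand is not stated in the labels or headers. The Igf2r call was lost without melanotrope replicate 1 (adjusted p = 0.0832) or corticotrope replicate 2 (0.0613). Insrr, the orphan receptor of the family, had means of 0.0181 FPKM in melanotropes and 0.00844 FPKM in corticotropes and was not tested.

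Ligand transcripts were scarce in both cell types. Ins1 and Ins2 were listed at 0 in all 4 libraries. Igf1 had 0.590 and 0.793 FPKM in melanotropes and 0.196 and 0.243 FPKM in corticotropes, without overlap, from 810 and 1066 implied reads in melanotropes and 196 and 459 in corticotropes. It lay under 1 FPKM and was not tested. Igf2 had 0.136 and 0.211 FPKM in melanotropes and 0.139 and 0.200 FPKM in corticotropes.

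Irs2 was the most abundant of the 10 genes in both cell types. Irs2 (chromosome 8, 10986964 to 11008430, minus strand) had 38.9 and 44.8 FPKM in melanotropes and 54.8 and 53.2 FPKM in corticotropes. The libraries did not overlap, and the log2 fold change was -0.36 (SE 0.10, limma adjusted p = 0.0297). This call was lost without melanotrope replicate 1 (adjusted p = 0.142), corticotrope replicate 1 (0.0887) or corticotrope replicate 2 (0.0802), and without the expression filter (0.115), within a range of 5.90e-04 to 0.142 over 14 alternatives. The first 581 bases of Irs2 overlap 9530052E02Rik on the other strand, whose level over those bases would amount to 2.74% to 2.85% of the Irs2 reads at even coverage.

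Irs1 (chromosome 1, 82233105 to 82291439, minus strand), the substrate best known from muscle and fat, had 2.36 and 2.68 FPKM in melanotropes and 2.64 and 3.12 FPKM in corticotropes. The ranges overlapped, with a log2 difference of -0.14 (95% interval -0.40 to 0.12, limma adjusted p = 0.36, called lower on the deposited scale alone of 14 alternatives, adjusted p = 0.0062).

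The other substrate of weight was Irs4, a docking protein studied mainly in hypothalamus and cell lines, which lies on the X chromosome. Irs4 had 3.20 and 3.84 FPKM in melanotropes and 45.7 and 58.4 FPKM in corticotropes. The corticotrope libraries were far above the melanotrope libraries, with a log2 fold change of -3.55 (SE 0.14, limma adjusted p = 4.30e-05). Irs4 made up 7.18% and 7.48% of the summed FPKM of Irs1, Irs2, Irs3 and Irs4 in melanotropes and 44.3% and 50.9% in corticotropes. Irs2 made up 87.3% and 87.2% of it in melanotropes and 53.1% and 46.4% in corticotropes. The summed FPKM of the 4 substrates was 44.5 and 51.3 in melanotropes and 103 and 115 in corticotropes, so the cell types differed more in that sum than in Irs1 or Irs2.

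The binding proteins changed in both directions and their makeup differed. Igfbp5 led in both cell types, and Igfbp4 came next in melanotropes whereas Igfbp3 came next in corticotropes. The summed FPKM of the 6 genes was 43.9 and 46.4 in melanotropes and 52.3 and 64.8 in corticotropes. Igfbp4 gave 29.2% and 31.5% of that sum in melanotropes and 2.21% and 2.46% in corticotropes. Igfbp3 gave 5.04% and 3.39% in melanotropes and 18.04% and 20.21% in corticotropes, and Igfbp5 gave 51.0% and 50.4% in melanotropes and 69.9% and 65.4% in corticotropes. As shares within a library, these values do not depend on the scaling between libraries.

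**Figure D2:**
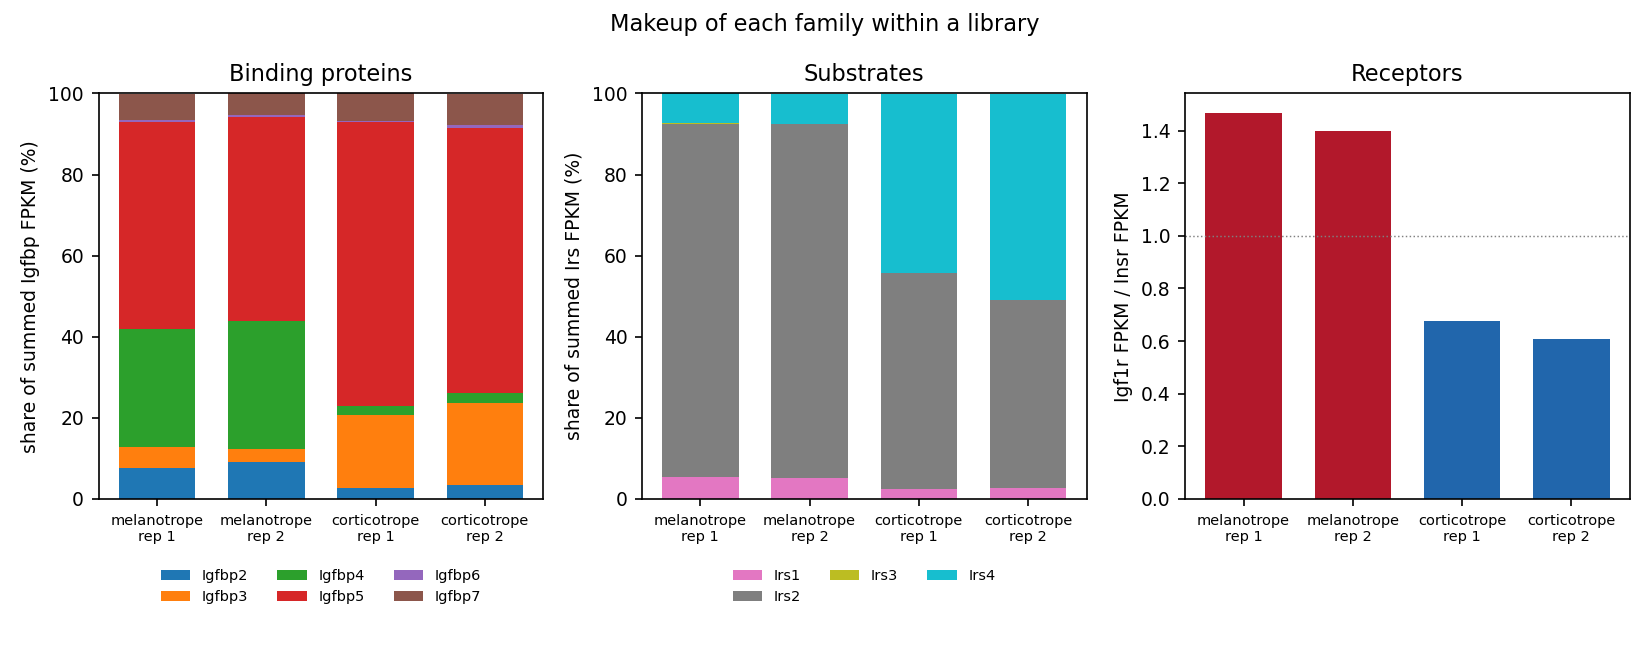
Makeup of 3 families within each library, melanotropes left of corticotropes: the share in percent of summed FPKM for the 6 binding proteins (left) and the 4 Irs genes (middle), and the ratio of Igf1r to Insr FPKM (right, dotted line at 1). Igfbp4 is a large share in melanotropes alone, Irs4 in corticotropes alone, and the receptor ratio is above 1 in both melanotrope libraries and below 1 in both corticotrope libraries.

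The windows just before the starts of the most different pair are shown because they are the regulatory sequence next to the largest differences. They are the 250 bases upstream of the RefSeq start on GRCm38.p6, which for Igfbp4 lies a few bases before the deposited start, 5′ to 3′ on the strand of the gene, for Igfbp4 (chr11:99040994-99041243, plus strand) and Igfbp3 (chr11:7213924-7214173, minus strand). Capitals mark matches to the motifs searched.
Igfbp4: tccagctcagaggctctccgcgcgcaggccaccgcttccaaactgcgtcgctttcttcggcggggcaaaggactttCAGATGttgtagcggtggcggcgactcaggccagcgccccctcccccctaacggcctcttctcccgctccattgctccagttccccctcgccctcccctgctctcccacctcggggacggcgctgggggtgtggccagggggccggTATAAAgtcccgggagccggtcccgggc
Igfbp3: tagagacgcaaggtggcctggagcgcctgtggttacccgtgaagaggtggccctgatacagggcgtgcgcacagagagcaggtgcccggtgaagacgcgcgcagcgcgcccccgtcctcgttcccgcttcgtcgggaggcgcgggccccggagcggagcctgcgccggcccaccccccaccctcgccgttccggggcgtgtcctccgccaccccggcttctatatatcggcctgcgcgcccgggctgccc
The Igfbp4 window held a TATA box (TATAAA, from -28 to -23 relative to the start) and, on the reverse strand, a NeuroD-type E-box (CATCTG, from -174 to -169). The Igfbp3 window held none of the letters searched. Matching was exact, so variants such as the tatatat near the end of the Igfbp3 window were not counted as a TATA box. The other motifs, also searched on both strands, were the Sp1 GC box (GGGCGG), the CCAAT box (CCAAT), the cAMP response element (TGACGTCA), a T-box half-site (TCACACC), a homeodomain pair and the Nr4a monomer site (AAAGGTCA). TATAAA was in 12.4% and CATCTG in 14.4% of 32851 such mouse windows. Windows were on hand for 9 of the 10 genes (not Insr), and 5 of them held GGGCGG, which was in 32.7% of all windows. The matches did not overlap each other. Their GC content was 73.2% for Igfbp3 and 69.2% for Igfbp4, against a median of 52.4% over all windows.

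Igfbp4, a mainly inhibitory binding protein that is cut by the pappalysin PAPP-A, showed the largest difference of the 10 genes. Igfbp4 (chromosome 11, 99041260 to 99052643, plus strand) had 12.8 and 14.6 FPKM in melanotropes and 1.15 and 1.59 FPKM in corticotropes. The groups were widely separated, from 5096 and 5682 implied reads in melanotropes and 334 and 868 in corticotropes. Its log2 fold change was 2.64 (SE 0.12, limma adjusted p = 6.19e-05), and 4.17% of all genes tested rose by a log2 of 1 or more. In the authors' deposited table its log2 fold change was 3.07 with an FDR of 0.0013. That column is headed corticotrope against melanotrope, and by its signs it runs melanotrope over corticotrope.

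Igfbp3, the main carrier of IGFs in blood, showed the opposite pattern. Igfbp3 (chromosome 11, 7206091 to 7213923, minus strand) had 2.21 and 1.57 FPKM in melanotropes and 9.43 and 13.1 FPKM in corticotropes. The lower corticotrope library was still far above both melanotrope libraries. The log2 fold change was -2.08 (SE 0.18, limma adjusted p = 4.36e-04), and 4.68% of all genes tested fell by a log2 of 1 or more. In the authors' deposited table it was -2.39 with an FDR of 0.0261. Igfbp3 and Igfbp4 were the members under an FDR of 0.05 there, as were 2.28% of all transcripts in that table. Igfbp1, the neighbour of Igfbp3 across a gap of 3.54 kb, was listed at 0 in both melanotrope libraries and had a mean of 0.0373 FPKM in corticotropes.

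Igfbp5, a binding protein that also attaches to extracellular matrix, fell in melanotropes. Igfbp5 (chromosome 1, 72858065 to 72874865, minus strand) had 22.4 and 23.4 FPKM in melanotropes and 36.5 and 42.3 FPKM in corticotropes. The libraries did not overlap, and the log2 fold change was -0.76 (SE 0.10, limma adjusted p = 0.00205).

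Its neighbour Igfbp2 lies 5.59 kb away on the other strand (chromosome 1, 72824480 to 72852471) and rose, so these adjacent genes changed in opposite directions. Igfbp2, which is common in brain and cerebrospinal fluid, had 3.36 and 4.18 FPKM in melanotropes and 1.43 and 2.17 FPKM in corticotropes. The libraries did not overlap, with a log2 fold change of 0.77 (SE 0.16, limma adjusted p = 0.012). Without the expression filter Igfbp2 was not called (adjusted p = 0.129, range over 14 alternatives 1.56e-04 to 0.129).

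Igfbp7, a related secreted protein that binds IGFs weakly and is known from blood vessels, had 2.87 and 2.48 FPKM in melanotropes and 3.54 and 5.11 FPKM in corticotropes (chromosome 5, 77349240 to 77408045, minus strand). The libraries did not overlap, and the log2 fold change of -0.52 (SE 0.16, limma adjusted p = 0.0435) just passed the threshold. The call held under 8 of 14 alternatives (adjusted p range 0.00402 to 0.226), and it was lost without melanotrope replicate 1 (0.0555), melanotrope replicate 2 (0.137) or corticotrope replicate 2 (0.151). The last 89 bases of Igfbp7 overlap the end of Polr2b on the other strand, which was listed at 31.8 and 29.2 deposited FPKM in melanotropes and 46.4 and 44.8 in corticotropes. At even coverage and without strand, Polr2b reads over those bases would equal 92.9% and 108% of the Igfbp7 reads in melanotropes and 79.1% and 56.3% in corticotropes, so the Igfbp7 values are uncertain. Its transcripts of 1205 and 1113 bases share start and end, and both gave nearly the same implied reads, 667 and 675 in melanotrope replicate 1 and 600 and 604 in corticotrope replicate 1. They are therefore the same signal listed under 2 names.

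Igfbp6, which prefers IGF2, was the gene that did not reach the test (chromosome 15, 102144186 to 102149512, plus strand). It had 0.238 and 0.198 FPKM in melanotropes and 0.188 and 0.478 FPKM in corticotropes. These values rest on 59 and 48 implied reads in melanotropes and 34 and 162 in corticotropes, and the ranges overlapped. Corticotrope replicate 2 alone was high.

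**Figure D3:**
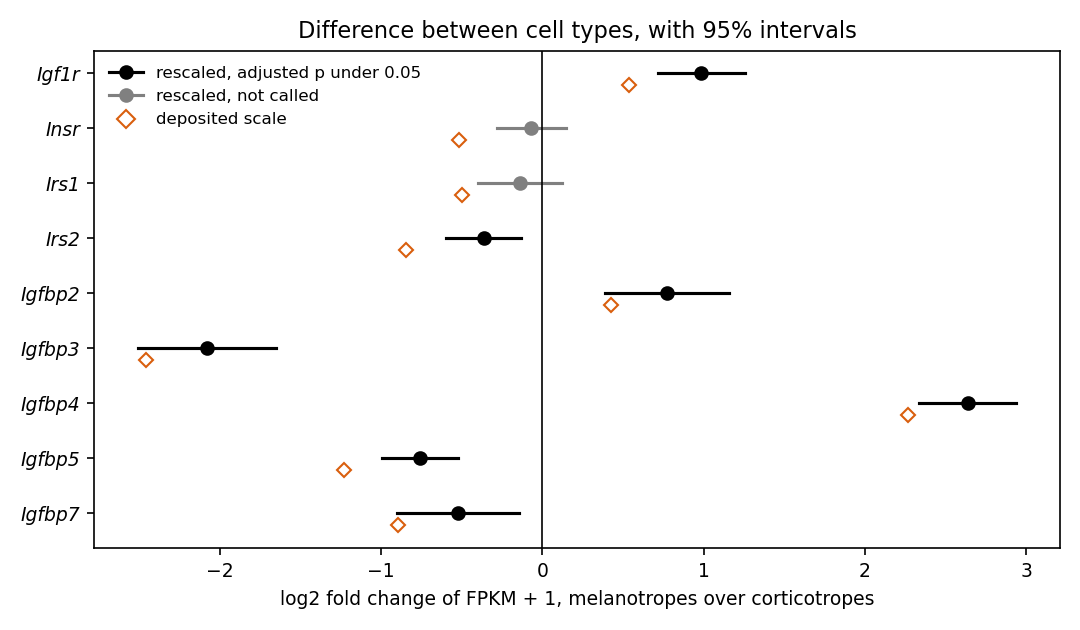
Log2 fold change of FPKM + 1, melanotropes over corticotropes, for the 9 genes tested, with 95% intervals (black where the adjusted p was under 0.05, grey otherwise) and the same difference on the deposited scale (diamonds). Igfbp4, Igf1r and Igfbp2 lie right of 0 and Igfbp3, Igfbp5, Igfbp7 and Irs2 left of it on both scales, while Insr and Irs1 span 0 after rescaling.

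In order of level within melanotropes, Irs2 came first, followed by Igfbp5, Igf1r, Igfbp4, Insr, Igfbp2, Igfbp7, Irs1, Igfbp3 and Igfbp6. Igf1r and Igfbp4, and Igfbp7 and Irs1, were neighbours there whose ranges over libraries overlapped. In corticotropes the order was Irs2, Igfbp5, Igfbp3, Insr, Igf1r, Igfbp7, Irs1, Igfbp2, Igfbp4 and Igfbp6, with overlap between Igfbp3 and Insr and between Igfbp2 and Igfbp4. Igfbp4 stood above 65.8% of tested genes in melanotropes and above 6.75% in corticotropes. Irs2 stood above 91.0% in melanotropes and 94.0% in corticotropes.

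Markers of cells that make these binding proteins elsewhere moved as well. The summed FPKM of 13 endothelial markers was 10.7 and 7.71 in melanotropes and 18.8 and 29.0 in corticotropes, and 4 of the 6 tested fell. Over all genes tested 18.7% rose and 17.5% fell, beside this count and the marker counts that follow. Plvap, a marker of fenestrated endothelium, had means of 1.65 FPKM in melanotropes and 7.92 FPKM in corticotropes. The summed FPKM of 12 pericyte and fibroblast markers was 21.0 and 18.5 in melanotropes and 10.3 and 12.5 in corticotropes. Of the 5 tested, 3 rose (Dcn, Lum and Col3a1) and 1 fell, and Dcn, a matrix proteoglycan, had means of 8.49 FPKM in melanotropes and 2.68 FPKM in corticotropes. The sum of 10 glial, pituicyte and folliculostellate markers was 38.8 and 45.1 in melanotropes and 19.9 and 24.3 in corticotropes. Most of it came from Sox2 (means 24.3 FPKM in melanotropes and 14.4 in corticotropes) and Slc1a3 (12.6 in melanotropes and 1.82 in corticotropes). Of the 4 tested, these and Sox9 rose, and Aldh1a1 fell. Among those not tested, Aldh1l1, Aqp4 and Fabp7 had lower means in melanotropes, and S100b, Gfap and Sox10 had higher means. The sum of 12 immune and blood markers was 17.4 and 22.5 in melanotropes and 30.5 and 38.7 in corticotropes, with 3 higher and 4 lower of 9 tested. Its members went opposite ways by cell type. The 3 that rose were the macrophage genes Csf1r (means 2.11 FPKM in melanotropes and 0.479 FPKM in corticotropes), C1qa (6.33 in melanotropes and 2.00 in corticotropes) and C1qb (4.66 in melanotropes and 1.54 in corticotropes). The 4 that fell were haemoglobin genes, near-identical copies that can share reads. Among the markers of these 4 lists, 4 immune and blood genes called (Csf1r and 3 haemoglobin genes) and Emcn, Rgs5, Col3a1, Lum and Sox9 reached 1 FPKM in 1 cell type alone. The expression filter favoured the calls of these genes, so those calls are not support for a difference. The markers listed at 0 in both melanotrope libraries were Cd3e alone, and none of the endothelial, pericyte or glial markers was at 0 in a whole cell type. The part of such cells in these results was not tested.

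Partners of the binding proteins were listed too. Of 10 such genes 5 were tested, and 2 were called higher and 2 lower in melanotropes, beside 18.7% higher and 17.5% lower over all genes tested. Of these calls, 1 higher and 1 lower were of genes that reached 1 FPKM in both cell types. Htra1 reached 1 FPKM in melanotropes alone and Pappa2 in corticotropes alone, so the expression filter favoured their calls and their p-values are not support for a difference. Neither was tested without a library of its high cell type, nor Pappa2 with a filter on the mean. Htra1, a secreted protease that can cut IGFBP5, had 5.68 and 6.78 FPKM in melanotropes and 0.319 and 0.704 FPKM in corticotropes (log2 fold change 2.27). Stc2, a secreted inhibitor of the pappalysins, rose, with 12.1 and 9.12 FPKM in melanotropes and 3.95 and 3.34 FPKM in corticotropes (log2 fold change 1.32, limma adjusted p = 0.00113, and 0.0518 without the expression filter). Pappa2, a pappalysin that cuts IGFBP3 and IGFBP5, had 0.0113 and 0.0248 FPKM in melanotropes and 1.93 and 1.66 FPKM in corticotropes (log2 fold change -1.46). Pappa, the protease of IGFBP4, had 0.0227 and 0.0248 FPKM in melanotropes and 0.917 and 1.61 FPKM in corticotropes, without overlap, and missed the expression filter. It was named after its values had been seen. Kazald1, an IGFBP-related secreted protein, was lower in melanotropes (log2 fold change -0.38, limma adjusted p = 0.0234), a call lost without melanotrope replicate 1 (0.11), corticotrope replicate 2 (0.0665) or the expression filter (0.105).

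Over the wider pathway, 74 other genes were listed, 57 were tested, and 9 were called higher and 17 lower in melanotropes, beside 18.7% higher and 17.5% lower over all genes tested. Of these calls, 2 higher (Htra1 and Shc3) and 2 lower (Pappa2 and Grb10) were of genes that passed the expression filter in their high cell type alone, which leaves 7 higher and 15 lower. The median log2 fold change of the list was -0.11. On the deposited scale 5 of 58 tested were higher and 41 lower, where 66.8% of all genes were lower. Fewer of the list rose without melanotrope replicate 2, and fewer fell without corticotrope replicate 2, with 55 tested in each of those fits. Part of this was the filter, since Htra1 and Shc3 were not tested in the former, nor Pappa2 and Grb10 in the latter.

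Among 14 further substrates and adaptors, 11 were tested, and 2 were called higher and 3 lower, beside 18.7% higher and 17.5% lower over all genes tested. Gab1, a docking protein, rose with 6.17 and 6.94 FPKM in melanotropes and 3.43 and 3.61 FPKM in corticotropes, and the adaptor Shc3 had 1.69 and 2.07 FPKM in melanotropes and 0.532 and 0.765 FPKM in corticotropes. The Shc3 call rests on the expression filter and was lost without it (limma adjusted p = 0.0607). Besides Irs4, the adaptor Sh2b1 fell, with 11.7 and 10.6 FPKM in melanotropes and 17.5 and 17.3 FPKM in corticotropes. Among 9 genes that act on the receptors, mostly as inhibitors, 8 were tested, and 1 was called higher and 5 lower, beside the same shares. Grb14, an adaptor that inhibits the insulin receptor, fell with 3.46 and 4.05 FPKM in melanotropes and 7.50 and 7.15 FPKM in corticotropes. Its relative Grb10, an imprinted gene, had means of 0.397 FPKM in melanotropes and 1.16 FPKM in corticotropes. Grb10 passed the filter through corticotropes alone, and it was also called without the filter (limma adjusted p = 0.0149). It dropped out with a filter on the mean or without either corticotrope library. The family's Grb7, an adaptor that is better known from ERBB2 signalling, rose with 19.8 and 25.8 FPKM in melanotropes and 9.98 and 10.8 FPKM in corticotropes (log2 fold change 1.05, limma adjusted p = 0.00197, and 0.0607 without the expression filter).

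Downstream, 26 genes from PI3K to mTOR were listed and 24 tested. Of these 4 rose and 4 fell, near the 18.7% that rose and 17.5% that fell among all genes tested. Pik3r1, the main regulatory subunit of PI3K, fell, with 15.7 and 16.5 FPKM in melanotropes and 39.0 and 42.2 FPKM in corticotropes (log2 fold change -1.28, limma adjusted p = 1.77e-04). Its relative Pik3r2 rose, with 16.8 and 18.8 FPKM in melanotropes and 13.3 and 12.3 FPKM in corticotropes (log2 fold change 0.45, limma adjusted p = 0.0118). On the deposited scale its log2 difference was -0.013 (limma adjusted p = 0.898), and the call was also lost without melanotrope replicate 2 (0.0564) or the expression filter (0.0729). The catalytic subunit Pik3ca rose by a log2 of 0.46 (limma adjusted p = 0.00708) and missed the threshold with deposited values (0.84). Rptor, the mTORC1 scaffold, fell by 0.43 on the log2 scale (limma adjusted p = 0.00773), and it overlaps the antisense transcript Rptoros. Of 9 listed targets of Akt 8 were tested and 2 fell, beside 17.5% of all genes tested. Tbc1d1, a regulator of glucose transporter traffic, had 4.28 and 5.14 FPKM in melanotropes and 16.3 and 22.1 FPKM in corticotropes (log2 fold change -1.81, limma adjusted p = 4.68e-04). Gsk3b was lower by a small margin (log2 fold change -0.26, limma adjusted p = 0.0449), and that call was lost without any 1 of the 4 libraries (adjusted p 0.0863 to 0.173).

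**Figure D4:**
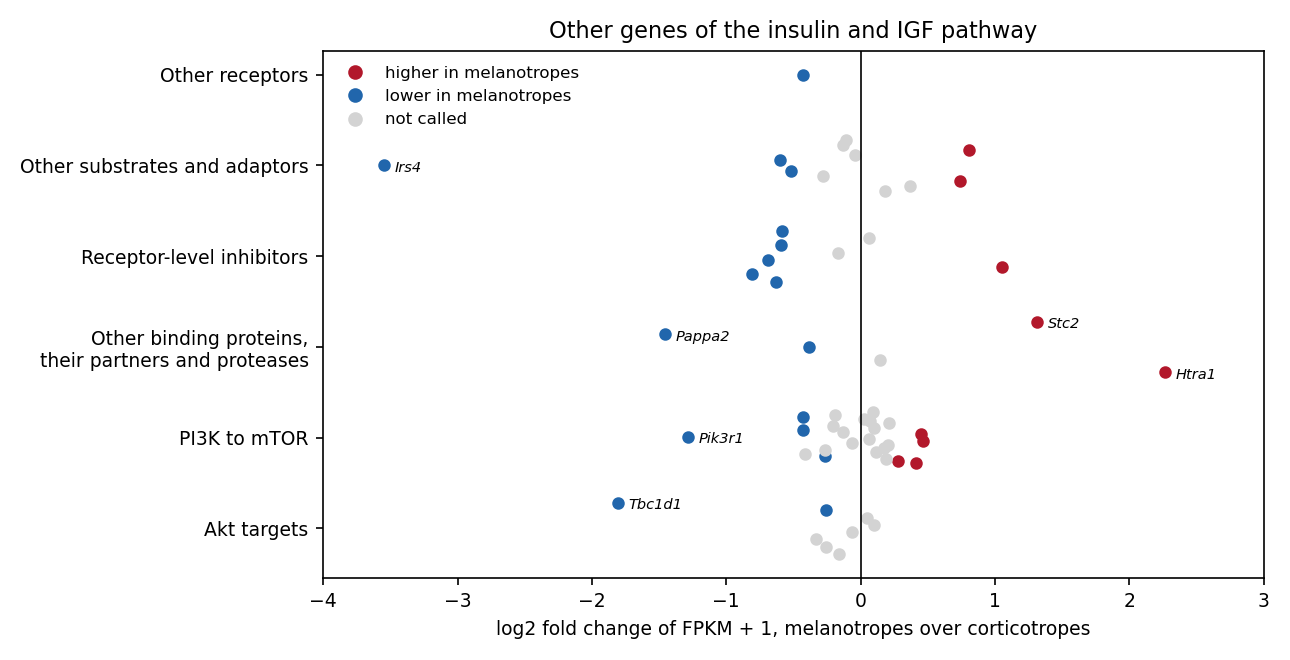
Log2 fold change of FPKM + 1, melanotropes over corticotropes, for the 57 tested genes of the wider pathway by group, red where higher and blue where lower at an adjusted p under 0.05, grey otherwise. Points over 1.2 from 0 are named, and Irs4 at -3.55 and Htra1 at 2.27 are the outermost.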

How the data were processed

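The deposited FPKM came from HOMER (analyzeRepeats, mm10, reads counted over exons), per the file headers, with a value for each RefSeq transcript in each library. Tools listed in the submitters' processing notes are edgeR, HOMER and TopHat, beside builds mm10 and GRCm38. Tool versions and the strand setting are not stated there. Log2 fold changes, p-values and FDR in the authors' deposited table came from HOMER's getDiffExpression on the FPKM table, per the file headers. A deposited ratio column, which raised 10 rather than 2 to the log2 value in 100% of rows, was left aside. Exon length in bases was deposited beside the values (unit other).

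Columns were divided by unweighted trimmed-mean-of-M factors (30% of M and 5% of A trimmed per side) of 0.882 and 0.807 in melanotropes and 1.22 and 1.15 in corticotropes. The longest transcript stood for a gene. Testing required 1 FPKM or more in 2 or more libraries and used limma 3.58.1 under R 4.3.3 (trend, two-sided, Benjamini-Hochberg) on log2(FPKM + 1), which understates changes of low genes. The fit was tested on simulated data. Reads were implied from whole-number steps of FPKM times length (within 0.1 step for 99.7% to 99.9% of low values), and they cover counting error only.

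Members and lists were chosen with earlier results of these data known. All members, the ligands, the other receptors and up to 2 called genes per direction of each pathway group were named, and Irs3, Pappa, Igfbp1 and overlapping genes were named after their values were seen.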

Additional observations from a re-analysis of the deposited data

How the results depend on the processing

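All 9 tested members kept their sign under each of the 14 alternatives, and Igf1r, Igfbp3, Igfbp4 and Igfbp5 were called under every one. Deposited values without rescaling gave 9726 calls, of which 939 were higher and 8787 lower, with 5 pathway genes higher and 41 lower, and Pik3r2 stood at -0.013. Without a filter on low values 3135 of 24063 genes were called (1463 higher), with 2 members lower and 5 pathway genes higher and 11 lower. Leaving out 1 library at a time, 1416 to 2041 genes were called higher and 1387 to 1796 lower, 2 to 3 members lower, 4 to 8 pathway genes higher and 10 to 15 lower. Those fits tested 12373 to 12840 genes, and in each the lone library is assumed to vary like the others. With the replicate block 7006 of 13043 genes tested were called, against 4726 without it, and the members again gave 3 higher and 4 lower. Replicate numbers are all that ties these libraries across cell types, although deviations of equal numbers correlated at 0.53 across 13043 genes. The causes of these changes were not tested. Igfbp6 missed the expression filter and without it had a log2 difference of -0.12 (limma adjusted p = 0.669).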

Other observations

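By the distance between centred log2(FPKM + 1) values over 4 libraries the genes most like Igfbp4 were Gulo, the enzyme of vitamin C synthesis (distance 0.17), Tgfbi, a matrix protein (0.19), and Gpc3, a glypican (0.20). Those most like Igfbp3 were Steap4, a metalloreductase (0.16), Hsd11b1, which regenerates glucocorticoid (0.22), and Wnt10a, a Wnt ligand (0.22). Tgfbi had 5.62 and 7.57 FPKM in melanotropes and 0.237 and 0.382 FPKM in corticotropes. Hsd11b1 had 1.04 and 0.905 FPKM in melanotropes and 5.74 and 7.49 FPKM in corticotropes.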
